A study of Mus musculus with 4 samples.

Results

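G1 cyclins, cyclin-dependent kinases (CDKs) and CDK inhibitors were followed in P19 cells, mouse embryonal carcinoma cells that form neurons and glia after aggregation with retinoic acid. The genes are the activators Ccnd1, Ccnd2, Ccnd3, Cdk4, Cdk6 and E2f1 and the inhibitors Cdkn1a, Cdkn1b, Cdkn1c and Rb1. Every probe set annotated with exactly 1 of these symbols was kept, which gave 23 probe sets of 10 genes (17 for the 6 activators and 6 for the 4 inhibitors) out of 20380 probe sets with a single symbol, which cover 12393 genes. The control was the unmodified line, and the experimental line carried constitutive human LIN28A. Aggregation with all-trans retinoic acid at 5e-07 M lasted 4 days in both, and each line has 2 arrays, numbered 1 and 2 in the labels. The promoter that drives LIN28A and whether the line is 1 clone are not given in the sources used here, and no named probe set reads the human transgene.

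Progress through G1 depends on D-type cyclins, which bind Cdk4 or Cdk6 and lead to phosphorylation of the retinoblastoma protein, the product of Rb1. Unphosphorylated retinoblastoma protein holds E2F factors in check, and its phosphorylation frees them to switch on genes of DNA replication. The Cip/Kip inhibitors p21 (Cdkn1a), p27 (Cdkn1b) and p57 (Cdkn1c) restrain CDKs, and p27 and p57 are known for their part in cell cycle exit of neural precursors. LIN28A blocks maturation of let-7 microRNAs, and transcripts of D-type cyclins and of Cdk6 have been described as let-7 targets, mostly in human cells.

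The let-7 sequences are shown because they are what LIN28A is known to act on, although no microRNA was measured here. Of 11 mature 5′ family names in the RefSeq table (GRCm38.p6), 10 share the seed GAGGUAG at bases 2 to 8, given in capitals. Examples lie at chr13:48538239-48538260 on the minus strand (let-7a) and, on the plus strand, at chr9:106178846-106178867 (let-7g) and chrX:151913229-151913250 (miR-98):
mmu-let-7a-5p: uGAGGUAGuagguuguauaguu
mmu-let-7g-5p: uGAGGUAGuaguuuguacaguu
mmu-miR-98-5p: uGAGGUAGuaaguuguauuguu
The let-7j entry, at chr3:140028281-140028304 on the plus strand, has another base at the end of its seed:
mmu-let-7j: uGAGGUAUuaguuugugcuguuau

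The arrays differed more by number than by line. Pearson's r across tested probe sets, which are not independent replicates, was 0.97 between the lines within each number, but 0.93 for control 1 with control 2 and 0.94 for LIN28A 1 with LIN28A 2. The ratio of 3′ to 5′ beta-actin signal was 4.71 and 3.37 in control 1 and LIN28A 1, and 2.76 and 3.09 in control 2 and LIN28A 2. Median intensity was between 29.0 and 38.6, and 35.7% to 42.3% of probe sets lay under an intensity of 16. Deposited values are linear intensities, scaled so that the trimmed mean is about 150 on every array. Differences between lines are given as log2(intensity + 16), which understates the change of low genes, with limma's standard error (SE), and also within each number, where there is no test. Paired values of a line are arrays 1 and 2 in that order. As these are bulk cultures, a different share of cells of one kind and a different amount of RNA per cell cannot be told apart.

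Among the D-type cyclins, Ccnd1 and Ccnd3 read higher in both LIN28A arrays than in both control arrays, and Ccnd2 did not. Of the inhibitors, Cdkn1b read lower in both LIN28A arrays, except under median centring, where its arrays overlapped. None of the 21 probe sets tested passed limma's threshold of an adjusted p under 0.05, at which 0% of all 15838 tested probe sets were called higher and 0% lower. Unadjusted, a p under 0.05 was reached by 0.442% of them in the higher and 1.21% in the lower direction. That split of 70 higher to 192 lower was 122 to 169 under quantile normalization and 167 to 107 under median centring, which moved the median difference of all tested probe sets from -0.05 to 0.08. With the replicate number as a block, limma called 0.00631% of probe sets higher and 0% lower, none of them a G1 regulator. At an unadjusted p under 0.05 in limma's test, the block gave 468 higher and 890 lower. The main fit has no block, so differences between the numbers enter its SE.

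Ccnd1 encodes cyclin D1 (chromosome 7, 144929931 to 144939831, GRCm38.p6). Its brightest probe set, 1417420_at, read 175 in control 1, 249.8 in control 2, 481 in LIN28A 1 and 370.5 in LIN28A 2. Both LIN28A arrays therefore lay above both control arrays, by 2.75-fold within number 1 and 1.48-fold within number 2. The log2 difference was 0.96 ± 0.33 (SE, n = 2 arrays per line), with an unadjusted p of 0.026 and an adjusted p of 1.0 in limma's test. It stayed between 0.72 and 1.20 when any 1 array was left out. A further probe set, 1448698_at, read 122 and 206 for control and 423 and 279 for LIN28A arrays, again without overlap. Its log2 difference was 1.04 ± 0.38 (SE). The dimmest, 1417419_at, read 59.5 and 26.9 in unmodified cells and 272 and 31.2 in the LIN28A line. That probe set was higher in LIN28A within both numbers, but its arrays overlapped, and LIN28A 1 stood far above the other arrays. Without LIN28A 1 its log2 difference was -0.27.

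Ccnd2, which encodes cyclin D2 (chromosome 6, 127125162 to 127152188), went opposite ways in the numbers. All of its 7 probe sets read higher in LIN28A 1 than in control 1 and lower in LIN28A 2 than in control 2. Over all 22626 probe sets other than controls, 15.3% went up in number 1 and down in number 2, and the Ccnd2 probe sets measure 1 gene, so they are not separate observations. The brightest, 1434745_at, read 2269 and 2270 in the control arrays, 3131.5 in LIN28A 1 and 1988 in LIN28A 2. Control arrays were thus nearly equal there, with the LIN28A arrays on either side of them, and its log2 difference was 0.14 ± 0.33 (SE, n = 2). At 1416122_at intensity was 1497 and 2475 on the control arrays and 3031 and 1815 with LIN28A. Probe set 1455956_x_at, whose suffix marks probes that may match other transcripts, read 1361 and 1574 for control and 2641 and 1161 for LIN28A arrays. At 1430127_a_at the values were 677 and 1388 in unmodified cells and 1493 and 1045 in the LIN28A line. These 4 probe sets gave log2 differences of 0.46 to 1.12 in number 1 and of -0.44 to -0.19 in number 2.

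The 3 dimmer Ccnd2 probe sets spread more widely. Probe set 1448229_s_at read 190 and 54.3 on the control arrays and 532 and 25.3 with LIN28A, and 1416123_at read 50.1 and 15.3 for control and 147 and 6.70 for LIN28A arrays. Both read lower in number 2 than in number 1 in each line, as the dimmest Ccnd1 probe set did. On the log2 scale, number 2 minus number 1 was -2.64 and -1.96 for these and -1.71 for Ccnd1 1417419_at. The beta-actin ratio also differed between numbers, most between the control arrays, and its part in these values was not tested. The last, 1416124_at, read 12.0 and 81.5 in unmodified cells and 12.4 and 6.80 in the LIN28A line, so that control 2 alone stood above 16.

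Ccnd3, the cyclin D3 gene (chromosome 17, 47505051 to 47599689), had 1 probe set. It read 230 and 250.0 in the control arrays, 288 in LIN28A 1 and 499 in LIN28A 2. The LIN28A arrays lay above both control arrays, by 1.25-fold in number 1 and 2.0-fold in number 2, so the larger difference fell in the other number than for Ccnd1. The log2 difference was 0.63 ± 0.35 (SE, n = 2; unadjusted p = 0.128 and adjusted p = 1.0 in limma's test), and it was 0.25 without LIN28A 2.

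**Figure D1:**
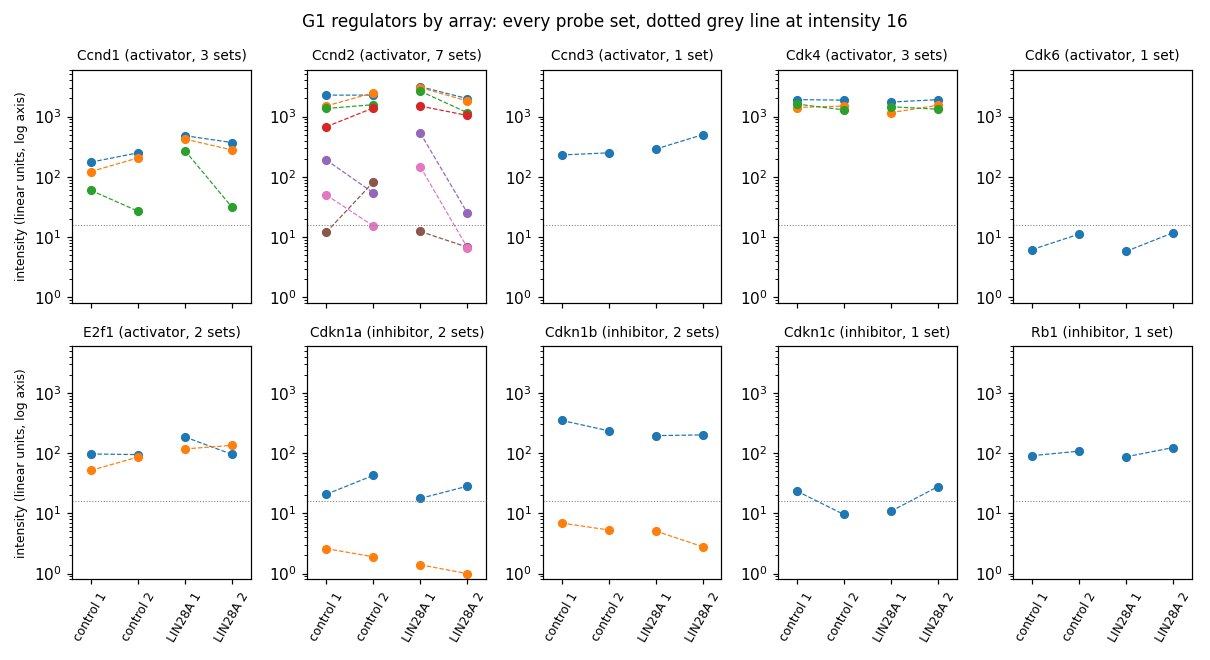
Intensity in arbitrary linear units on a log axis for every probe set of the 10 genes, with 1 point per array; each colour is 1 probe set, dashed lines join the 2 arrays of a line only to guide the eye, and the dotted line marks an intensity of 16. The 2 brighter Ccnd1 probe sets, Ccnd3 and 1 E2f1 probe set have both LIN28A points above both control points. Both Cdkn1b probe sets and the dimmer Cdkn1a probe set have them below, but only the brighter Cdkn1b probe set reads above 16. Cdk4 stays between 1160 and 1912 on every array.

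The partner kinases showed no such separation. Cdk4 (chromosome 10, 127063535 to 127067288) read 1912 and 1872 on the control arrays and 1740 and 1907 with LIN28A at its brightest probe set, 1422441_x_at. Its 3 probe sets overlapped between the lines, with log2 differences of -0.05, -0.12 and -0.06, each with an SE of 0.28 to 0.30 (n = 2). Each lay below 0 in number 1 and above 0 in number 2, and median centring moved all of them to between 0.0079 and 0.073. Cdk6 (chromosome 5, 3341004 to 3531008) read 6.20 and 11.2 for control and 5.80 and 11.8 for LIN28A arrays at its only probe set. All these values lie under 16, and with no detection calls in the table, Cdk6 may or may not have been above background.

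E2f1, the transcription factor released when retinoblastoma protein is phosphorylated (chromosome 2, 154559400 to 154569892), read higher in LIN28A within both numbers at both of its probe sets. Probe set 1431875_a_at read 51.7 and 85.8 in unmodified cells and 117 and 134 in the LIN28A line, without overlap. Its log2 difference was 0.77 ± 0.33 (SE, n = 2), with an unadjusted p of 0.058 and an adjusted p of 1.0 in limma's test. It stayed between 0.48 and 1.06 when any 1 array was left out. At 1417878_at, slightly brighter on average, control read 96.7 and 94.4 and LIN28A cells read 185 and 95.3. There only LIN28A 1 stood apart, and without it the log2 difference of 0.42 became -0.0032.

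Among the inhibitors, Cdkn1b, which encodes p27 (chromosome 6, 134920401 to 134925525), read 348 and 235 on the control arrays and 195 and 200.2 with LIN28A at 1434045_at. Both LIN28A arrays lay below both control arrays on the deposited scale, at 0.560 of the control value in number 1 and 0.852 in number 2. The log2 difference was -0.50 ± 0.32 (SE, n = 2; unadjusted p = 0.164 and adjusted p = 1.0 in limma's test), and it was -0.23 without control 1. The other Cdkn1b probe set read 2.80 to 6.90 on all arrays and was not tested.

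Cdkn1a, which encodes p21, a transcriptional target of p53 (chromosome 17, 29090979 to 29100722), read 20.7 and 42.6 for control and 17.7 and 28.2 for LIN28A arrays at 1424638_at. It was lower in LIN28A within each number, but the lines overlapped, and the log2 difference was -0.26 ± 0.36 (SE, n = 2). Without control 2 it was 0.07. Its other probe set read 1.0 to 2.60 and was not tested. Cdkn1c, which encodes p57 and is a maternally expressed imprinted gene (chromosome 7, 143458339 to 143461059), read 23.4 and 9.60 in unmodified cells and 10.8 and 27.7 in the LIN28A line. The numbers pulled opposite ways, with log2 differences of -0.56 and 0.77 in numbers 1 and 2. Rb1 (chromosome 14, 73192858 to 73325951) read 90.6 and 108 on the control arrays and 86.8 and 123.5 with LIN28A, a log2 difference of 0.06 ± 0.31 (SE, n = 2), with overlapping lines.

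Counted over all 23 probe sets, 4 of 17 activator probe sets lay above both control arrays in LIN28A cells and 0 below. Over all probe sets, 8.89% lay above. Those 4 belong to 3 genes, with Ccnd1 giving 2 of them. Of 6 inhibitor probe sets, 3 lay below both control arrays and 0 above, where 18.0% of all probe sets lay below. Of these 3, those of Cdkn1a and of the dimmer Cdkn1b set were under an intensity of 16 on every array, which leaves 1 above it. The same 4 activator probe sets lay above both control arrays under quantile normalization and under median centring, where the share of all probe sets above was 14.2% and 16.6%. For the inhibitors, 1 probe set (Cdkn1b 1434045_at) lay below under quantile normalization and 0 under median centring, where Rb1 lay above both control arrays. The share of all probe sets below was 13.2% and 7.21% under these scalings. Within both numbers on the deposited scale, 6 activator probe sets were higher and 0 lower, beside 20.3% of all probe sets higher. Of the inhibitor probe sets, 4 were lower and 0 higher, beside 34.6% lower. Those 6 belong to Ccnd1, Ccnd3 and E2f1, and those 4 to Cdkn1a and Cdkn1b. The dimmer probe set of Cdkn1a and that of Cdkn1b read under 16 on every array.

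Set against each other at the brightest probe set of each gene, the activators had a median log2 difference of 0.28 and the inhibitors of -0.10, beside -0.05 over all tested probe sets. Within number 1 the medians were 0.38 and -0.34, beside -0.087 over all tested probe sets. Within number 2 they were 0.03 and -0.02, beside -0.0024. Activators thus exceeded inhibitors by 0.72 in number 1 and by 0.05 in number 2 (0.38 over both, with no test since the genes were chosen with earlier results known). The inhibitor median was 0.013 under quantile normalization and 0.025 under median centring, so its sign depends on the scaling. Both medians include dim genes. With the filter raised to the 50th percentile, 5 activators and 2 inhibitors remained, with medians of 0.42 and -0.22. Without LIN28A 1 the activators no longer exceeded the inhibitors (-0.011), and without LIN28A 2 they did so by 0.71.

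**Figure D2:**
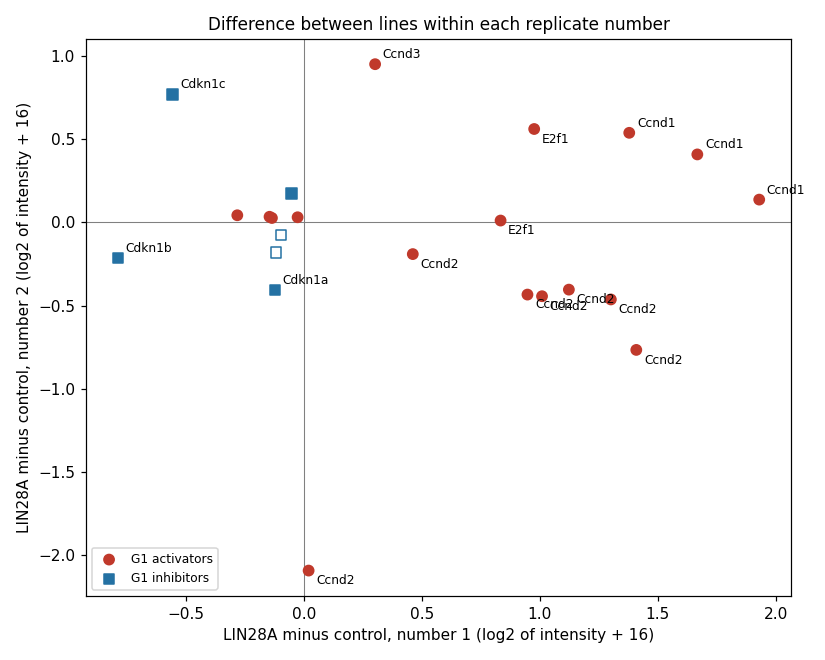
Log2 difference between LIN28A and control arrays within number 1 (horizontal axis) and within number 2 (vertical axis), 1 point per probe set, red circles for activators and blue squares for inhibitors, open where the probe set was too dim to be tested. The 3 Ccnd1 probe sets, Ccnd3 and both E2f1 probe sets lie in the upper right, all 7 Ccnd2 probe sets at lower right, and Cdkn1a and Cdkn1b at lower left; the unlabelled points near the centre are Cdk4, Cdk6, Rb1 and the untested probe sets.

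Windows around transcript starts are shown for E2f1 and Cdkn1b, genes with a probe set whose LIN28A arrays lay above (E2f1) or below (Cdkn1b) both control arrays and for which the RefSeq table (GRCm38.p6, 250 bases before to 50 after a transcript start) holds a single window. The search was for GGGCGG, a GC box, on both strands, shown in capitals as GGGCGG or CCGCCC. E2f1 has 5 matches and Cdkn1b has 1. The E2f1 window is at chr2:154569377-154569676 on the minus strand and that of Cdkn1b at chr6:134920151-134920450 on the plus strand. The E2f1 window lies inside the annotated gene, around a transcript start 466 bases downstream of the gene's outermost 5′ end, so its GC boxes lie within the gene. The Cdkn1b start is that gene's 5′ end.
E2f1: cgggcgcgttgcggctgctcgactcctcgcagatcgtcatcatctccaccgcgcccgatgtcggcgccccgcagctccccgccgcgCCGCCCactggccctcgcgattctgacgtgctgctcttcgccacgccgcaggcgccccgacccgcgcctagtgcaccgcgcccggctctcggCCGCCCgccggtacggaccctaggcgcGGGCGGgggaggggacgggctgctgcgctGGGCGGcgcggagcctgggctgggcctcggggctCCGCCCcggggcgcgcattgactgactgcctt
Cdkn1b: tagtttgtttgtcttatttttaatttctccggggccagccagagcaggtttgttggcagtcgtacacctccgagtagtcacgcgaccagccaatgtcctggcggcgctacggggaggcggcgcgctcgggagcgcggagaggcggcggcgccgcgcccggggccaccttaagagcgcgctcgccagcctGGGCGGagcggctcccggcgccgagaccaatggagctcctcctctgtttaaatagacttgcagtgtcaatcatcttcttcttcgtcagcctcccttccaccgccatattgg
Of 8 windows of the 6 genes that the table covers, 6 held a GC box, beside 35.7% of all 32851 windows. The E2F letters TTTCCCGC, TTTCGCGC, TTTGCCGC or TTTGGCGC, which can overlap a GC box, were in 0 of the 8 windows and in 2.26% of all windows, which says only that these letters are not in these windows. A match is a description of letters and not of binding.

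Most of the genes fixed as E2F targets, which act in DNA replication and nucleotide supply, read higher in LIN28A cells. Of 18 tested E2F target genes at their brightest probe set, 14 read higher in both LIN28A arrays than in both control arrays and 0 lower, beside 11.5% of all genes higher and 16.6% lower. Within both numbers 17 were higher, beside 25.7% of all genes, with a median log2 difference of 0.48 over both numbers, 0.47 in number 1 and 0.47 in number 2. The median lay between 0.37 and 0.60 under every alternative run, and 15 and 14 genes lay above both control arrays under quantile normalization and median centring, beside 14.5% and 19.9% of all genes. Cell division genes were known to read higher on these arrays when this list was chosen, so the count is no independent evidence. Mybl2, which encodes the cell cycle transcription factor B-Myb, read 51.2 and 42.8 for control and 78.4 and 91.3 for LIN28A arrays. Pola1, the catalytic subunit gene of DNA polymerase alpha, read 120 and 113 in unmodified cells and 179.8 and 195 in the LIN28A line. Rrm1, of the large subunit of ribonucleotide reductase, read 608 and 433.5 on the control arrays and 869 and 806 with LIN28A. In each, the 2 lines did not overlap. These genes, and the next, were named for having the list's smallest unadjusted p in limma's test, which favours such separation. Cdc45, a part of the replicative helicase, differed by 0.61 ± 0.28 (SE, n = 2). The exception was the licensing factor gene Cdt1, which read 1418 and 1730 for control and 1865.5 and 1131 for LIN28A arrays; it was named after its values were seen. No gene of the list passed limma's threshold (0 of 18).

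Other activators of G1 and of entry into S phase were mixed. Of 12 tested, 2 read higher in both LIN28A arrays and 1 lower, beside 11.5% and 16.6% of all genes, and 0 passed the threshold. The median log2 difference was 0.14, with 0.11 in number 1 and 0.23 in number 2. It ranged from 0.076 (without control 2) to 0.25 (without control 1) when 1 array was left out. Under quantile normalization 1 read higher and 0 lower, beside 14.5% and 13.7% of all genes, and under median centring 3 and 0, beside 19.9% and 9.03%, with a median of 0.27. Ccne1, the cyclin E1 gene, read 72.2 and 29.1 in unmodified cells and 119 and 66.1 in the LIN28A line, higher within both numbers but with overlapping lines. Its log2 difference ran from 0.25 without control 2 to 1.22 without control 1. Cdc25a, a phosphatase that activates CDKs, read 202 and 218 on the control arrays and 252 and 297 with LIN28A, without overlap. Skp2, which marks p27 for degradation, differed by 0.25 ± 0.31 and Tfdp1, the E2F partner gene, by 0.25 ± 0.37 (SE, n = 2). Without control 2 the Skp2 difference was 0.025 and without control 1 it was 0.47, while that of Tfdp1 was -0.14 without LIN28A 2 and 0.64 without LIN28A 1.

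Over both numbers, other inhibitors and repressors did not run the opposite way. Within number 1 their median lay below 0, but so did that of all tested probe sets (-0.087). Of 10 tested, 2 read higher in both LIN28A arrays and 1 lower, beside 11.5% and 16.6% of all genes, with a median of 0.12, which was -0.08 in number 1 and 0.22 in number 2, and 0 passed the threshold. Without LIN28A 2 the median was -0.14, and without control 1 it was 0.014. It was 0.29 without LIN28A 1, 0.21 without control 2 and 0.25 under median centring, where 4 read higher and 1 lower, beside 19.9% and 9.03% of all genes. The atypical repressor gene E2f8 read 68.0 and 87.4 for control and 105 and 128 for LIN28A arrays, and Rbl1, which encodes the retinoblastoma relative p107, read 230 and 222 in unmodified cells and 260 and 253.5 in the LIN28A line. Both are also known to be switched on by E2F factors. Fbxw7, the ubiquitin ligase subunit gene that targets cyclin E, read 157.5 and 163 on the control arrays and 122 and 153 with LIN28A, below both control arrays. Its log2 difference was -0.057 without LIN28A 1 and -0.35 without LIN28A 2. E2f4 differed by 0.20 ± 0.34 (SE, n = 2), and by -0.10 without LIN28A 2.

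p53 target genes, followed because Cdkn1a is one of them, had a median log2 difference of -0.04 (0.085 under median centring) over 11 tested genes, with 1 higher in both LIN28A arrays and 0 lower, beside 11.5% and 16.6% of all genes, and 0 past the threshold. The sign of the median was not stable: it was 0.063 without control 1, 0.072 without control 2, 0.044 without LIN28A 1 and -0.11 without LIN28A 2. Perp, a desmosomal membrane protein gene, differed by 0.33 ± 0.32 and Zmat3, a zinc finger protein gene, by 0.25 ± 0.45 (SE, n = 2). The apoptosis gene Bbc3 differed by -0.39 ± 0.38, with 0.22 in number 1 and -1.0 in number 2. The Bbc3 difference was -0.0023 without control 2 and -0.78 without control 1, that of Perp 0.072 without LIN28A 1 and 0.59 without LIN28A 2, and that of Zmat3 -0.26 without control 1 and 0.76 without control 2. Sesn2, a stress-induced sestrin gene, read 154 in control 2 and between 5.20 and 23.6 on the other arrays.

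**Figure D3:**
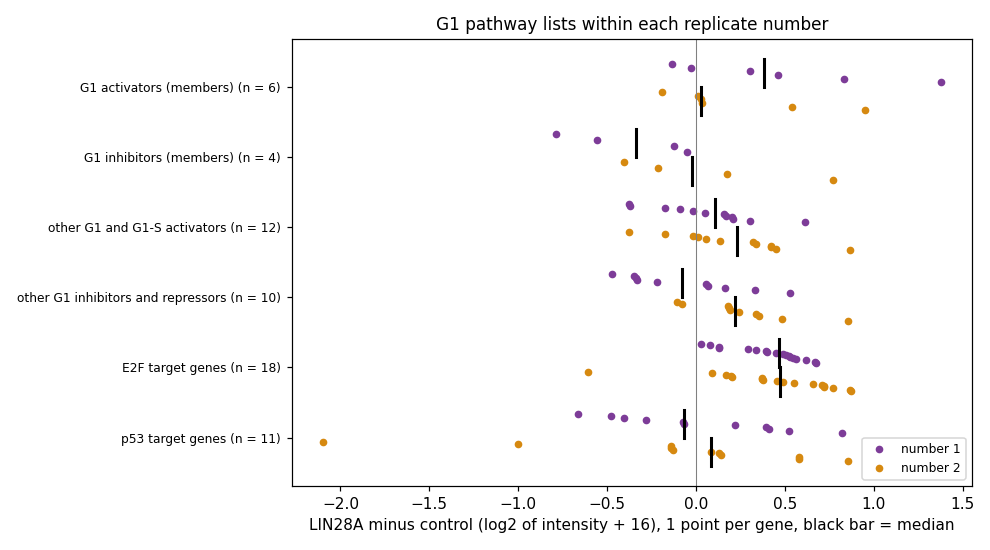
Log2 difference between LIN28A and control arrays within number 1 (purple) and number 2 (orange), 1 point per gene at its brightest probe set, for the G1 regulators and 4 further gene lists; black bars are medians. The E2F target genes have medians of 0.47 in both numbers, with Cdt1 the only one below 0, while the medians of the G1 activators are 0.38 and 0.03.

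Markers of cell states moved with the line or with the number as well, and their part in the G1 values was not tested. As a baseline for counts above 0, the median log2 difference of all tested probe sets was -0.05. Summed over 12 neuronal markers, intensity was 4153 and 6892 for control and 2254 and 4937 for LIN28A arrays, with 0 of 12 log2 differences above 0 and 3 below both control arrays, beside 16.6% of all genes. Without LIN28A 1, 5 of 12 lay above 0, and without control 2, 3 of 12. Over 9 pluripotency markers summed intensity was 243 and 454 in unmodified cells and 106 and 948 in the LIN28A line. Of 7 tested, 3 lay above 0, and Zfp42 and Tdgf1 were under 16 on every array. Above 0 were 4 without control 1, 4 without LIN28A 1, 2 without control 2 and 1 without LIN28A 2. Over 8 neural progenitor markers summed intensity was 3850 and 5310 on the control arrays and 4532 and 3746 with LIN28A. It was higher in number 1 and lower in number 2, as Ccnd2 was, with 5 of 8 differences above 0. That count was 2 without control 1, 2 without LIN28A 1, 4 without LIN28A 2 and 6 without control 2. The 9 fibroblast and smooth muscle markers summed to 308 and 146 for control and 336 and 516 for LIN28A arrays, with 7 of 7 tested above 0. Col1a1, Tagln, Postn, Pdgfrb and Lum were under 16 throughout, so some of the 7 tested genes were that dim. The median log2 difference of the 7 tested was -0.0063 in number 1 and 0.84 in number 2, and 3 were higher within both numbers. Above 0 lay 4 of 7 without control 2 and 5 of 7 without LIN28A 2. The 9 endoderm markers summed to 517 and 651 in unmodified cells and 627 and 878 in the LIN28A line. Of 5 tested, 4 lay above 0, and Gata4, Sox17, Afp and Foxa2 were under 16 throughout. Without LIN28A 2, 3 of 5 lay above 0, and without control 2, 5 of 5.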

How the data were processed

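Per the labels' protocols, total RNA was copied with an oligo(dT) primer and labelled with biotin as cRNA for 1-colour Affymetrix arrays. The deposited table of 22690 probe sets holds linear intensity values. For the software that summarised probes, the sources used here give no name. After trimming 2% at each end the arrays all averaged 150.1, which was read as scaling by the authors. Names came from the platform's annotation, and the 64 control probe sets were dropped.

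Intensities were transformed to log2(value + 16). A filter removed probe sets with a mean below the 30th percentile, or about 8.04 in linear units, and kept 15838. The lines were compared with limma 3.58.1 (R 4.3.3; lmFit and eBayes, without trend or block), with Benjamini-Hochberg adjustment over every tested probe set. An exact two-sided permutation test of 2 arrays against 2 cannot give a p under 0.333, and none was run. Since no label names separate cultures, p-values measure only the spread between arrays, whose number limits precision. The fit was tested on simulated data whose planted differences were larger than those of the G1 regulators. That test therefore does not show whether differences of their size could be called.

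Members and lists were chosen with earlier results of these data known. Named are every member probe set and, of each further list, the 4 genes with the smallest unadjusted p.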

Additional observations from a re-analysis of the deposited data

How the results depend on the processing

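The 39 single-gene differences, except those of the 2 untested probe sets, were recomputed under 14 alternatives, which gave 512 values; 481 kept their direction and none passed the threshold. Outside the fits that leave out an array, 4 turned sign: the Cdk4 probe sets under median centring (0.073, 0.0079 and 0.072) and Cdk6 with pseudocount 1 (-0.0066). Leaving out 1 array let a difference cross 0 as follows. It ran from -0.27 to 2.34 for Ccnd1 1417419_at, -0.19 to 0.46 for Ccnd2 1434745_at, -0.085 to 0.65 for Ccnd2 1416122_at, -0.33 to 0.84 for Ccnd2 1455956_x_at, -0.15 to 0.87 for Ccnd2 1430127_a_at, -1.54 to 2.19 for Ccnd2 1448229_s_at and -1.0 to 1.84 for Ccnd2 1416123_at. It ran from -0.12 to 0.012 for Cdk4 1422441_x_at, -0.32 to 0.083 for Cdk4 1422440_at, -0.21 to 0.10 for Cdk4 1422439_a_at, -0.17 to 0.18 for Cdk6 1460291_at, -0.0032 to 0.85 for E2f1 1417878_at, -0.60 to 0.073 for Cdkn1a 1424638_at and -0.24 to 0.46 for Cdkn1c 1417649_at. It ran from -0.16 to 0.28 for Rb1 1417850_at, -0.14 to 0.64 for Tfdp1 1423241_a_at, -0.10 to 0.50 for E2f4 1451480_at, -2.14 to 0.86 for Sesn2 1451599_at and -0.26 to 0.76 for Zmat3 1449353_at. The inhibitor median was -0.35 without LIN28A replicate 2 and ranged from -0.35 to 0.11 without 1 array. Deviations from the group mean correlated between same-numbered arrays (r = 0.62), yet nothing in the labels pairs them beyond that number (2 pairs). Over all genes the replicate block called 1 probe set higher and 0 lower, 3 higher with quantile normalization and 3 higher with eBayes trend, none of them a G1 regulator. Under it the unadjusted p in limma's test was 0.0097 for Ccnd1 1417420_at, 0.012 for E2f1 1431875_a_at, 0.039 for Ccnd3 and 0.073 for Cdkn1b 1434045_at. Adjusted p-values of these were 0.55 to 0.59. At the brightest E2f1 probe set, 1417878_at, limma's unadjusted p was 0.154 and its adjusted p 0.64. Probe sets at an unadjusted p under 0.05 numbered 158 higher and 362 lower with no filter and 61 and 315 with pseudocount 1. Counts of members without overlap under the other scalings were added after seeing the data: 1 inhibitor probe set lay below under quantile normalization and 0 under median centring, against 3 as deposited, and the activator count stayed at 4. Median centring subtracts each array's median, which raised every difference between the lines over both numbers by the same amount. The unchanged activator count there is therefore no separate support. The cause of the other moves was not tested. Without detection calls, background limits what values under 16 show.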
